A study of Mus musculus with 12 samples.

Results

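Potassium, sodium and chloride channel genes were taken as all genes on the array whose symbol began with Kcn, with Scn and a digit, or with Clcn, and 102 of 17178 named genes met that rule. Of these, 43 were well above background, by the scanner software's own call, on every array of at least 1 of the 4 groups, the condition set here for describing a gene. They stood among 12300 genes kept by the same condition. Of the 43 kept channel genes, 21 were well above background on all 12 arrays and 11 were kept through 1 group only. A gene admitted only by the group or groups where it is high is biased toward a difference from them. Such genes are named as such below. The kept set is thus not the whole channel repertoire of the genome or of these cells.

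The cells were C3H/10T1/2, an established mouse fibroblast line that can be turned into muscle by the transcription factor MyoD. Each culture carried a stable short hairpin, either shLuc (the control line) or shSix4, directed against Six4, a homeodomain transcription factor of the myogenic network. Each line was then infected with a retrovirus, either pBABE (empty) or pBABE-MyoD, which encodes MyoD with Flag and myc tags, giving 4 groups of 3 arrays named shLuc with empty vector, shLuc with MyoD, shSix4 with empty vector and shSix4 with MyoD. All groups, the controls included, carried a hairpin and a virus, were switched 24 h after infection to medium with 2% horse serum, and were harvested 24 h later. Each hairpin was represented by a single stable line as far as the labels say, and the labels leave unstated whether replicates came from separate cultures, so a p-value here measures a spread that could be technical. One description field names another muscle cell line and stages that do not match the other labels, and it was not used.

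Levels are given as log2 signal relative to the 75th percentile of the same array, so 0 is a bright spot for the array. The lowest signal counted as well above background ranged from -6.69 to -4.86 over the arrays. Counts of arrays above background thus do not rest on a common level. A gene is said to have risen or fallen when the Benjamini-Hochberg adjusted p of the limma fit over all 12300 genes was under 0.05. Each slide held 1 array of every group, and the scan of slide 1 stood apart, so a fit with the slide as a block was run too and its result is given where it changed a call. Six4, the hairpin's target, lay below its shLuc level by 0.92 log2 units in shSix4 cells with the empty vector (limma adjusted p = 0.999) and by 1.17 with MyoD (adjusted p = 0.558, 0.0424 with the slide blocked), so the knockdown did not pass the test without the block. All 14 skeletal muscle marker genes rose with MyoD in both lines, and 14 of 14 were well above background on every MyoD array against 4 to 8 on the arrays with the empty vector. Of 14 fibroblast markers, 13 to 14 were well above background on every array and none changed in any comparison without the block, whereas with the block 6 fell and 1 rose with MyoD in shLuc cells. The summed signal of 13 neuron markers ranged from 2.38 to 3.32 log2 units over the 12 arrays. Neuron markers are given because several channel genes are best known from neurons, and the part of any other cell type in the changes below was not tested. Of 9 kept cardiac muscle markers, 3 rose with MyoD in each line. In RNA from whole cultures, fewer cells of a type and less RNA per cell cannot be told apart.

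Ion channels of these families set the resting potential and fire the action potential of muscle. Sodium channel alpha subunits (Scn) carry the upstroke, voltage-gated potassium channels (Kcna to Kcnd, Kcnh, Kcnq) repolarise the membrane, and inward rectifiers (Kcnj) and two-pore-domain channels (Kcnk) hold it near rest. Calcium-activated potassium channels (Kcnn) shape the after-hyperpolarisation, and the skeletal muscle chloride channel Clcn1 stabilises the resting fibre. Other Clcn genes encode chloride and proton exchangers of endosomes and lysosomes.

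Promoter windows were available for 33 of the 43 kept channel genes, from RefSeq on GRCm38.p6, and run from 250 bases before to 50 bases after the start of a transcript. Those of the 4 genes that passed the test in shLuc cells after MyoD are shown because MyoD and its relatives bind the E-box, CANNTG. Capitals mark every E-box, which reads the same class of letters on both strands, and in Kcnj12 also the single match to the Six-factor motif MEF3, searched as TCAGGTT on both strands and found there as its reverse complement AACCTGA. Clcn5 had windows at chrX:7188665-7188964 and chrX:7319309-7319608, both on the minus strand. The Kcnj12 window lay at chr11:61065554-61065853 on the plus strand, that of Kcnn3 at chr3:89519914-89520213 on the plus strand, and the first of 4 Kcnc2 windows at chr10:112269767-112270066 on the plus strand.
Clcn5 window 1: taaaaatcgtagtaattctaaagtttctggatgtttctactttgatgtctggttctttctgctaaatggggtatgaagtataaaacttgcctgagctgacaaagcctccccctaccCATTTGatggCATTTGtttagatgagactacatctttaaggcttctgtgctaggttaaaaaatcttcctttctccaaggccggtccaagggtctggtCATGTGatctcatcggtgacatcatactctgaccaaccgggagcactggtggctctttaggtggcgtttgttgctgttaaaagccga
Clcn5 window 2: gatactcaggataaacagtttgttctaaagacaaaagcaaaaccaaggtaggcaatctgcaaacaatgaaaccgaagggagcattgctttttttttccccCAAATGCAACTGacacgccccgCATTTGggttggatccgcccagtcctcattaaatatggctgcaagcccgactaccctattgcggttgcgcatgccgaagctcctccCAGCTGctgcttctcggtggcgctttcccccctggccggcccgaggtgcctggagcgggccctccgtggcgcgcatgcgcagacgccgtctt
Kcnj12: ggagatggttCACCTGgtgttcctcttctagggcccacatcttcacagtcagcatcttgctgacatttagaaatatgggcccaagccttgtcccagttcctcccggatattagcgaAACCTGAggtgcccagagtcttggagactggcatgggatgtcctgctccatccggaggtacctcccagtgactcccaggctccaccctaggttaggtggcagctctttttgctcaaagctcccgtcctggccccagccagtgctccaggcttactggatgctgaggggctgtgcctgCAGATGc
Kcnn3: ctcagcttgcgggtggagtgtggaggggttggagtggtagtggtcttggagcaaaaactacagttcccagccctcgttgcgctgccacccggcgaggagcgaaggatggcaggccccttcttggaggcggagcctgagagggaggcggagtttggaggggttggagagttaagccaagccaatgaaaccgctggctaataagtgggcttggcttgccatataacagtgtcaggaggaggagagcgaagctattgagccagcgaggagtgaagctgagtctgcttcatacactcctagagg
Kcnc2 window 1: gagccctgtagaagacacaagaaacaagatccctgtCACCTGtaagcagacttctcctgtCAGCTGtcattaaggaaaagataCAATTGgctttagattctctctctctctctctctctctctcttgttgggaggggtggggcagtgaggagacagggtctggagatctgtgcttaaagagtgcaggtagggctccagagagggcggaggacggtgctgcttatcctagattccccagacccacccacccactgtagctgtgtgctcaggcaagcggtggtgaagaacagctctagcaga
The Clcn5 windows held 3 and 4 E-boxes, of which 1, in the second window, had the letters CAGCTG of the form favoured by MyoD. Kcnj12 held 2 E-boxes and 1 MEF3 match, Kcnn3 held 0 E-boxes, and the Kcnc2 window held 3 E-boxes, 1 of them CAGCTG. E-boxes were present in 72.3% of all 32851 promoter windows and in at least 1 window of 28 of the 33 matched channel genes. CAGCTG was present in 16.3% of all windows and in 6 of the 33 channel genes, and MEF3 in 4.07% of windows and in 2 of the 33. The MEF2 motif was present in 0.557% of all windows and in 0 of the 33. These are matches of letters, the windows of 1 gene can overlap, and the E-box count includes the CAGCTG matches.

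In shLuc cells MyoD raised 3 of the 43 channel genes, the chloride-proton exchanger Clcn5, the inward rectifier Kcnj12 and the calcium-activated potassium channel Kcnn3, and lowered 1, the fast delayed-rectifier subunit Kcnc2. These 4 of 43 stood against 6.28% of all genes called in the same comparison, with 4.72% of all genes called higher and 1.56% called lower. In shSix4 cells 1 of 43 passed, Clcn5, against 2.89% of all genes, 2.79% higher and 0.106% lower. The median change over the 43 was -0.10 log2 units in shLuc cells against -0.14 over all genes, and -0.02 against -0.06 in shSix4 cells. With the slide as a block, 14 of 43 passed in shLuc cells against 25.6% of all genes. Of these, 6 were higher against 9.89% of all genes and 8 lower against 15.7%. In shSix4 cells 4 of 43 passed with the block against 8.3% of all genes, 3 higher against 5.7% and 1 lower against 2.6%. Groups did not overlap for 7 channel genes higher and 7 lower in shLuc cells, against 10.2% and 15.9% of all genes, and for 5 and 5 in shSix4 cells, against 7.15% and 7.38%. With normexp background correction 0 of the 43 passed in either line. The shares of channel genes called lay near those of all genes in both lines, with and without the block. The log2 scale, not the fold, is used for genes that were dim in a group.

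**Figure D1:**
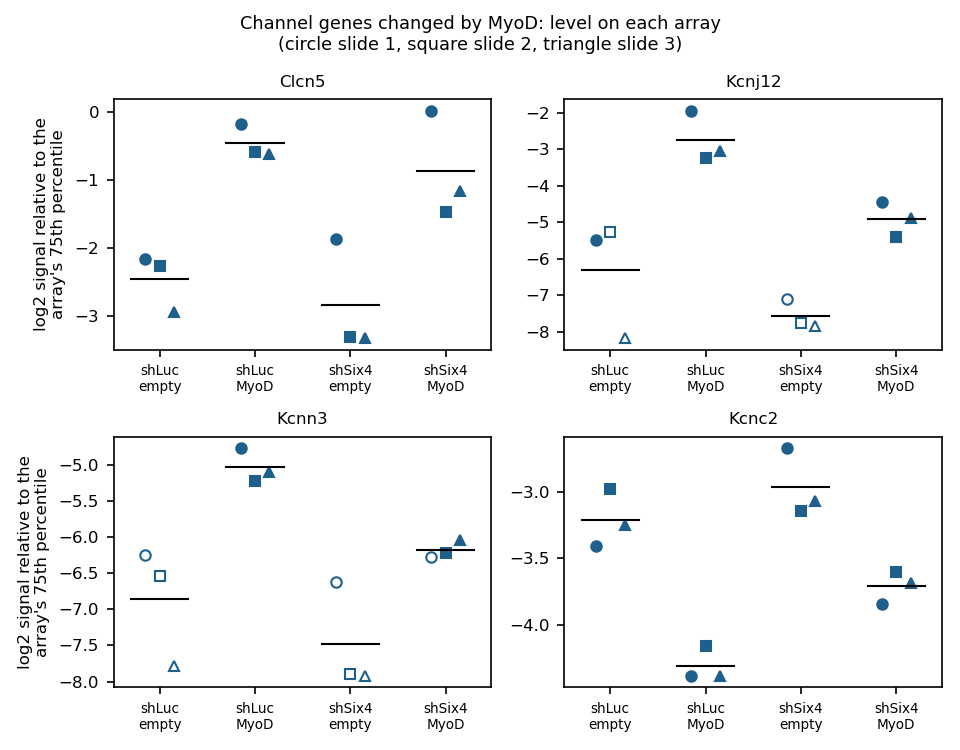
Level of the 4 channel genes that changed with MyoD, as log2 signal relative to the 75th percentile of the array (vertical axis, own scale in each panel), for the 4 groups. Each point is 1 array (circle, slide 1; square, slide 2; triangle, slide 3), filled where the spot was well above background, and the bar is the group mean; for Clcn5, Kcnj12 and Kcnn3 every MyoD array lies above the empty-vector arrays of its line, and for Kcnc2 below them.

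Of 9 sodium channel alpha subunits 5 were kept. Scn4a, which encodes Nav1.4, the sodium channel of adult skeletal muscle fibres, was measured on all 12 arrays between -2.92 and -2.19. Its change with MyoD was -0.20 ± 0.21 in shLuc cells and -0.07 ± 0.21 in shSix4 cells, and its groups overlapped. Scn8a, the Nav1.6 subunit best known from neurons, read -7.19, -5.52 and -4.79 in shLuc cells with the empty vector and -2.15, -4.04 and -5.29 with MyoD. It was well above background on 1 of the 3 empty-vector arrays and on all 3 with MyoD. The mean change of 2.01 ± 0.73 (limma adjusted p = 0.153) came from slides 1 and 2, where it was 5.04 and 1.48, whereas on slide 3 it was -0.50. Scn1a and Scn2a, further neuronal alpha subunits, changed by -1.01 ± 0.67 and -0.51 ± 0.75 in shLuc cells. The other kept Scn2a probes changed by -1.01 ± 0.53 and -0.66 ± 0.21. With every kept probe fitted on its own, they passed only with the slide as a block (limma adjusted p = 0.0352 and 0.0126). Scn1a passed only with the slide as a block, at adjusted p = 0.0322, and it had been kept through the shLuc group with the empty vector alone, its highest, so this fall starts from the group that admitted it.

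Clcn5 was the channel gene that passed in both lines. It encodes an endosomal chloride-proton exchanger best known from kidney. Its level was -2.16, -2.26 and -2.95 on slides 1 to 3 in shLuc cells with the empty vector and -0.17, -0.58 and -0.62 with MyoD. The shSix4 values were -1.87, -3.31 and -3.33 with the empty vector and 0.03, -1.47 and -1.15 with MyoD. Every MyoD array lay above every empty-vector array of the same line, and on slide 1 both shSix4 values were the higher ones of their group. The rise was 2.00 ± 0.46 log2 units in shLuc cells (limma adjusted p = 0.0245) and 1.97 ± 0.46 in shSix4 cells (adjusted p = 0.0451). Within slides the shLuc rise measured 1.99, 1.68 and 2.33 and the shSix4 rise 1.90, 1.84 and 2.18. The blocked fit gave adjusted p = 0.00091 and 0.00168. Leaving out any 1 of the 6 arrays of the shLuc comparison took adjusted p past the threshold, to between 0.0523 and 0.0995, while the rise stayed between 1.76 and 2.15. The shSix4 call was lost without any 1 of 10 of the 12 arrays, the exceptions being the shSix4 arrays of slide 1 with the empty vector and of slide 2 with MyoD, and the rise stayed between 1.52 and 2.45.

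The other ClC genes moved less. Clcn3, an endosomal exchanger, and Clcn6, a late endosomal one, changed by 0.87 ± 0.36 and 0.92 ± 0.32 log2 units with MyoD in shLuc cells and passed only with the slide as a block, at adjusted p = 0.0301 and 0.0282. In shSix4 cells they changed by 0.24 ± 0.36 and 0.58 ± 0.32 and passed in neither fit. A second Clcn3 probe, well above background on all 12 arrays, changed by 0.45 ± 0.31 in shLuc cells. With every kept probe fitted on its own it did not pass (limma adjusted p = 0.551, 0.189 with the block). Clcn7, the lysosomal exchanger, lay between 0.31 and 1.23 on the 12 arrays, highest on slide 1 in every group, and changed by -0.15 ± 0.30 and -0.02 ± 0.30. Clcn2 and Clcn4 changed by -0.31 to 0.16 log2 units in both lines. Clcn1, the resting chloride conductance of mature fibres, was not kept, since it was well above background on 1 array only, in shSix4 cells with the empty vector.

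Kcnj12 encodes Kir2.2, one of the inward rectifiers of muscle. It read -5.50, -5.28 and -8.18 in shLuc cells with the empty vector, and was well above background there on 1 of the 3 arrays. With MyoD it read -1.94, -3.24 and -3.05. In shSix4 cells it read -7.09, -7.76 and -7.86 with the empty vector, well above background on no array, and -4.45, -5.40 and -4.89 with MyoD. All 6 MyoD arrays were well above background, and the groups did not overlap within either line. Kcnj12 was kept only through the 2 MyoD groups, where it is high. Its MyoD tests and its place among the raised genes thus rest on groups that also selected it. The change was 3.58 ± 0.67 log2 units in shLuc cells (limma adjusted p = 0.00743) and lay at 3.56, 2.04 and 5.13 on the 3 slides. It ranged from 2.64, without the empty-vector array of slide 3, to 4.10 over arrays left out and kept its call, but normexp gave 0.89 and no call. In shSix4 cells it was 2.66 ± 0.67 (adjusted p = 0.0694, 0.0156 with the slide blocked), at least 1.38-fold higher. For such a bound every dim array was given its lowest signal counted as above background, or its own reading of the gene where that was higher, before the group means were compared. Kcnj12 was the only 1 of 14 inward rectifiers kept. Kcnj2, which encodes Kir2.1, the related rectifier of myoblasts and muscle, was well above background on 0 and 0 arrays in the shLuc groups with the empty vector and MyoD, and on 1 and 2 in the shSix4 groups.

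Kcnn3 encodes SK3, a small-conductance calcium-activated channel known from developing and denervated muscle. It read -6.25, -6.54 and -7.78 in shLuc cells with the empty vector, not well above background on any array, and -4.77, -5.23 and -5.10 with MyoD, well above it on all 3. In shSix4 cells it read -6.62, -7.90 and -7.92 with the empty vector and -6.28, -6.22 and -6.04 with MyoD, well above background on 0 and 2 arrays. All 12 values lie in the dim range of the array. The change in shLuc cells was 1.83 ± 0.42 log2 units (limma adjusted p = 0.0250), at least 1.90-fold higher. Kcnn3 was kept only through the shLuc group with MyoD, where it is high, so its test and its place among the 3 raised genes rest on a group that also selected it. Without a filter on dim probes its adjusted p was 0.0447, and with normexp the change was 0.029 and not called. In shSix4 cells it was 1.30 ± 0.42 (adjusted p = 0.200, 0.0466 with the slide blocked). The call in shLuc cells was lost without any 1 of 5 of the 6 arrays compared, the exception being the empty-vector array of slide 1.

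The other calcium- and sodium-activated potassium channels did not rise. Kcnn4, the intermediate-conductance channel of proliferating fibroblasts and myoblasts, read -0.52, -1.49 and -2.02 in shLuc cells with the empty vector and -1.32, -2.67 and -2.63 with MyoD. It was highest on slide 1 in every group, so the groups overlapped while each slide showed a lower value with MyoD, by -0.79, -1.17 and -0.61. The change of -0.86 ± 0.61 had limma adjusted p = 0.502, and 0.00483 with the slide blocked. Kcnn1, which encodes SK1, changed by -0.69 ± 0.21 (adjusted p = 0.0807, 0.0140 with the block). In shSix4 cells the changes were -0.40 ± 0.61 for Kcnn4 and -0.38 ± 0.21 for Kcnn1, and neither passed in either fit. Kcnt2, a sodium-activated channel, changed by -1.09 ± 0.48 and -1.10 ± 0.48 in the 2 lines and did not pass. Its second probe changed by -1.50 ± 0.36 in shLuc cells, with limma adjusted p = 0.0385 when all 24000 kept probes were fitted one by one, in which 4.39% of probes were called. That fit was added after the values had been seen. In shLuc cells the second probe read -5.37, -5.62 and -5.12 with the empty vector and -6.71, -7.61 and -6.29 with MyoD. It was well above background there on 2 and 0 arrays, so it was dim in both groups and at least 1.28-fold lower with MyoD. This probe was kept only through the shSix4 group with the empty vector.

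**Figure D2:**
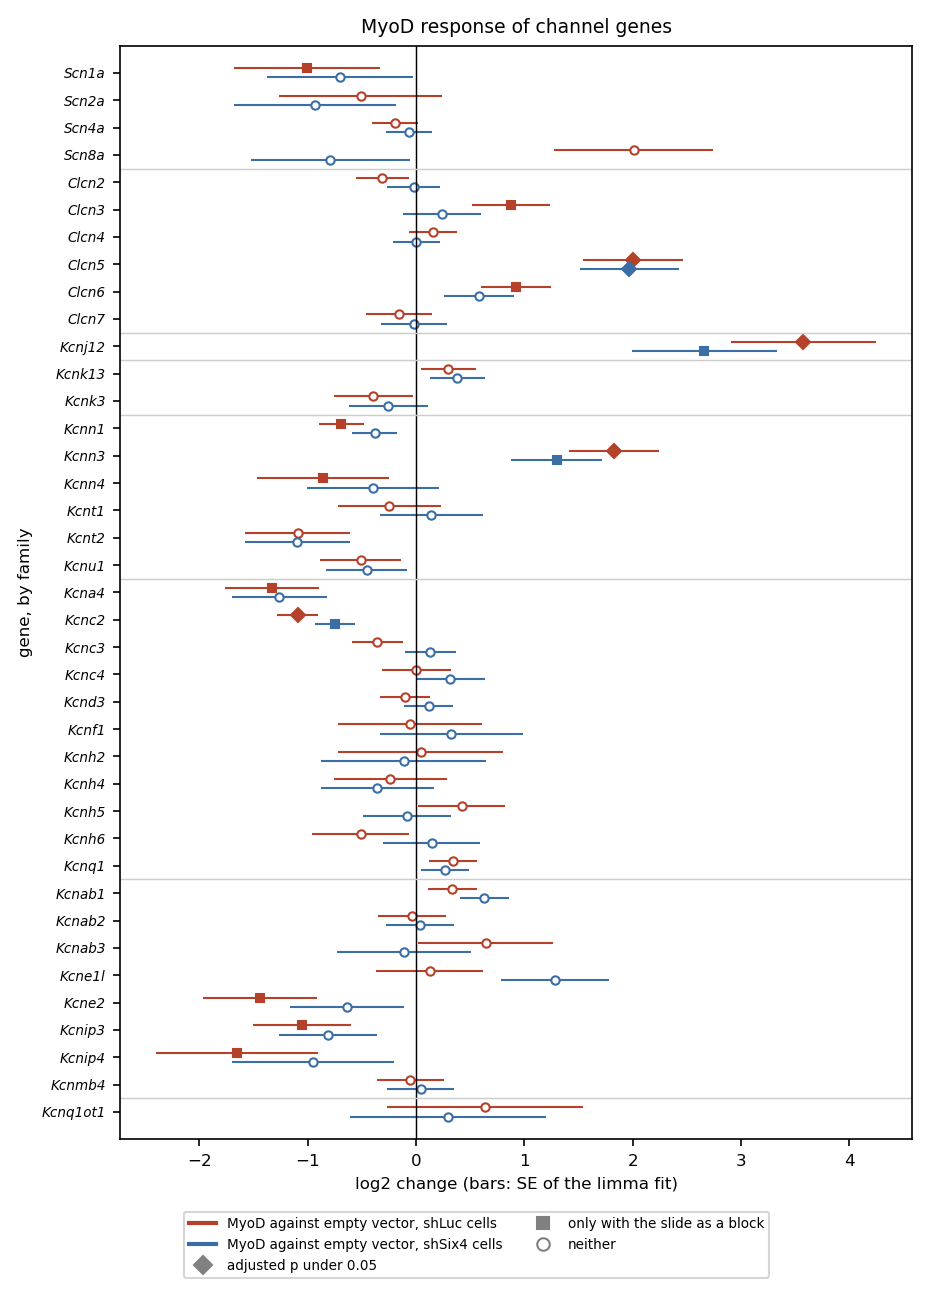
Log2 change with MyoD against the empty vector for 39 of the 43 kept channel genes (rows, grouped by family with grey lines between), in shLuc cells (red) and shSix4 cells (blue), with the SE of the limma fit as bars. Diamonds passed the test, squares passed only with the slide as a block and open circles passed neither; Kcnj12, Clcn5 and Kcnn3 lie at 3.58, 2.00 and 1.83 in shLuc cells.

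Among the voltage-gated potassium channel alpha subunits, 12 of 35 were kept, and 1 of these 12 passed in shLuc cells. Kcnc2, which encodes Kv3.2, a channel of fast-spiking neurons, read -3.41, -2.98 and -3.25 in shLuc cells with the empty vector and -4.38, -4.16 and -4.38 with MyoD. The shSix4 values were -2.67, -3.14 and -3.07 with the empty vector and -3.84, -3.60 and -3.69 with MyoD. The MyoD arrays lay below the empty-vector arrays in both lines, and all 12 were well above background. The change was -1.09 ± 0.19 log2 units in shLuc cells (limma adjusted p = 0.00418), with -0.97, -1.18 and -1.13 on the 3 slides. It was -0.75 ± 0.19 in shSix4 cells (adjusted p = 0.0675, 0.0232 with the slide blocked). A second Kcnc2 probe changed by -1.33 ± 0.33 in shLuc cells, with limma adjusted p = 0.0442 among single probes, and by -0.49 ± 0.33 in shSix4 cells (adjusted p = 0.886), where 2.17% of probes were called.

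Kcna4, which encodes the A-type channel Kv1.4, changed by -1.33 ± 0.44 log2 units with MyoD in shLuc cells and by -1.26 ± 0.44 in shSix4 cells. It passed only in shLuc cells with the slide as a block, at adjusted p = 0.0336. Kcna4 was kept only through the 2 groups with the empty vector, its high ones, so these falls start from the groups that admitted it. Of the remaining kept alpha subunits of this family, 9 passed in no MyoD comparison under either fit. They include Kcnq1 and Kcnh2, the slow and rapid delayed rectifiers of heart.

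Accessory subunits gave no call without the block. Kcne2, a small subunit that modulates several potassium channels, read -5.25, -4.80 and -4.69 in shLuc cells with the empty vector and -7.45, -5.91 and -5.70 with MyoD, well above background on 3 and 1 arrays. Its change was -1.44 ± 0.53 (limma adjusted p = 0.156, 0.00218 with the slide blocked). Kcne2 was kept only through the shLuc group with the empty vector, its high group, so the blocked call is no independent support for a fall. Kcnip3 and Kcnip4 are calcium-binding proteins that associate with Kv4 channels. They changed by -1.05 ± 0.45 and -1.65 ± 0.75 in shLuc cells and passed only with the block, at adjusted p = 0.0455 and 0.00455. In shSix4 cells these 3 changed by -0.64 to -0.95 log2 units and did not pass in either fit. Kcnab1, a beta subunit of Kv1 channels, changed by 0.63 ± 0.22 in shSix4 cells (limma adjusted p = 0.274).

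Comparing the hairpins asks how the shSix4 line differed from shLuc under the same virus, and here no channel gene passed without the block. With MyoD 0 of 43 passed against 0.228% of all genes, and with the empty vector 0 of 43 against 0.0569%. At an unadjusted limma p under 0.05 there were 10 and 3 channel genes of 43, against 7.8% and 4.45% of all genes. The difference between the lines in their MyoD response was called for 0 of 43 and for 0% of all genes, with 1 channel gene, Scn8a, at an unadjusted p under 0.05, against 2.02% of all genes. The median difference between the lines was -0.09 log2 units with MyoD and -0.16 with the empty vector over the 43, against 0.03 and -0.03 over all genes. Both MyoD and hairpin comparisons share groups, so the values below and above are not independent.

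With the slide as a block, 3 of 43 passed between the lines carrying MyoD, against 4.33% of all genes, and 0 of 43 between the lines with the empty vector, against 0.642%. Kcnip4 read -6.50, -4.03 and -4.00 in shLuc cells with MyoD and -4.11, -1.90 and -2.18 in shSix4 cells with MyoD. The 2 groups overlapped because slide 1 was the lowest in both, while on each slide the shSix4 array was higher, by 2.40, 2.12 and 1.82. The difference was 2.11 ± 0.75 log2 units (limma adjusted p = 0.410, 0.00981 with the block). With the empty vector Kcnip4 was higher in shSix4 cells by 1.42 ± 0.75, which did not pass in either fit. Kcnn4 was higher by 0.67 ± 0.61 with MyoD (adjusted p = 0.0473 with the block). Clcn4, an endosomal exchanger bright on all arrays, read 1.80, 2.17 and 1.88 in shLuc cells with MyoD and 1.17, 1.53 and 1.35 in shSix4 cells with MyoD. Its difference of -0.60 ± 0.22 had limma adjusted p = 0.438 and 0.0292 with the block.

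Some of the genes described above had different means in the MyoD groups, without passing. Kcnj12 was lower in shSix4 cells with MyoD by -2.17 ± 0.67 log2 units (limma adjusted p = 0.279, 0.0549 with the block), with -2.51, -2.16 and -1.83 on the 3 slides and no overlap. It also lay lower with the empty vector, by -1.25 ± 0.67, where neither group was above background on more than 1 array. Kcnn3 was lower by -1.15 ± 0.42 (adjusted p = 0.442). Scn8a, whose shSix4 values with MyoD were -7.03, -6.43 and -6.29 and not well above background on any array, had a difference of -2.76 ± 0.73 (adjusted p = 0.182), with -4.88 on slide 1, -2.39 on slide 2 and a smaller negative value on slide 3. It was kept only through the shLuc group with MyoD, the high one here, and the size of the difference leans on the slide 1 array of that group. Clcn5 differed by -0.41 ± 0.46. On these arrays the summed skeletal muscle markers were 9.24 to 9.91 log2 units in shLuc cells with MyoD and 7.72 to 8.51 in shSix4 cells with MyoD, and the part of that difference in the channel values was not tested. Of the 14 markers, 1 was lower in shSix4 cells by the test and 6 with the block.

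With the empty vector the largest differences between the lines were in dim genes. Kcne1l, a small accessory subunit, read -4.43, -5.12 and -4.74 in the shLuc line, against -6.42, -6.57 and -7.54 in the shSix4 line, where it was not well above background on any array. The difference was -2.08 ± 0.49 log2 units (limma adjusted p = 0.335), at least 1.53-fold lower. Kcne1l was kept only through the 2 shLuc groups, its high ones, so this difference and its bound rest on a group that also selected it. Kcnh5, a channel of the ether-à-go-go family, read -6.12, -6.90 and -5.63 in the shLuc line, against -4.45, -4.39 and -4.78 in the shSix4 line, well above background on 1 and 3 arrays. Its difference of 1.68 ± 0.41 had the same adjusted p of 0.335, and it was kept only through the shSix4 group with the empty vector, the high one of this comparison. Kcnmb4, a beta subunit of the large-conductance calcium-activated channel, was lower by -0.93 ± 0.31 with the empty vector and by -0.84 ± 0.31 with MyoD, with no overlap in either comparison and no call. Groups did not overlap for 2 channel genes higher and 4 lower with the empty vector, against 3.3% and 5.03% of all genes, and for 4 higher and 9 lower with MyoD, against 5.98% and 6.05%.

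**Figure D3:**
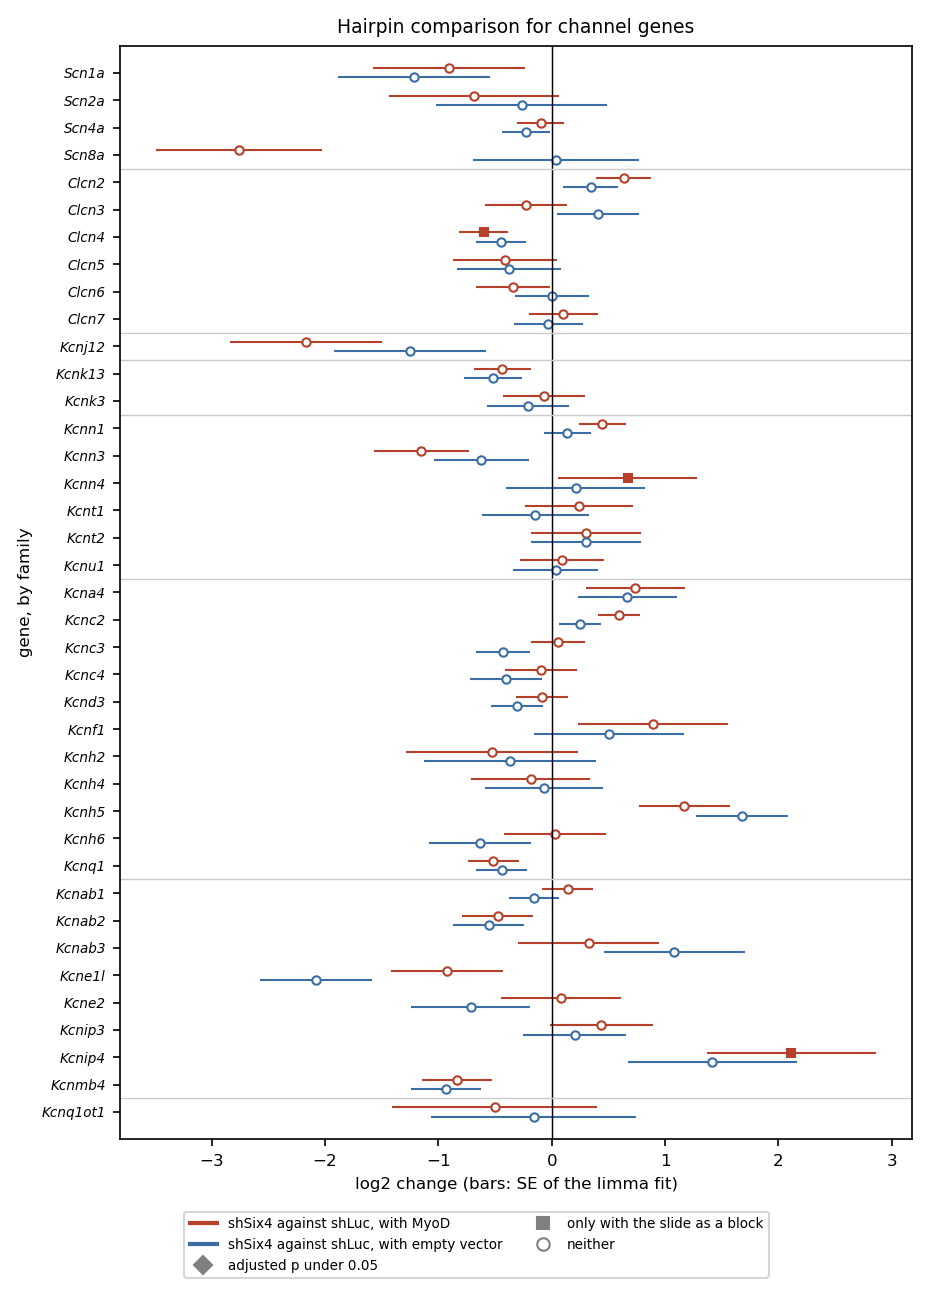
Log2 difference of shSix4 against shLuc cells for 39 of the 43 kept channel genes (rows, grouped by family with grey lines between), with MyoD (red) and with the empty vector (blue), with the SE of the limma fit as bars. No gene passed the test; squares (Clcn4, Kcnn4 and Kcnip4 with MyoD) passed only with the slide as a block, and Scn8a lies lowest at -2.76.

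Slide 1 moved many of these genes in every group. It gave the highest value of all 4 groups for 9 of the 43 (20.9%, against 26.3% of all genes) and the lowest for 6 (14.0%, against 19.6%). Kcnh2 read -0.85, -0.73, -1.23 and -1.19 on slide 1 in shLuc cells with the empty vector and MyoD and in shSix4 cells with the empty vector and MyoD, and between -3.18 and -2.44 on the other slides. Kcnq1ot1, an antisense RNA of the Kcnq1 locus that is no channel and met the rule by its symbol only, went the other way, between -3.31 and -2.23 on slide 1 and between -1.35 and -0.18 on the others. Neither changed in any comparison.

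**Figure D4:**
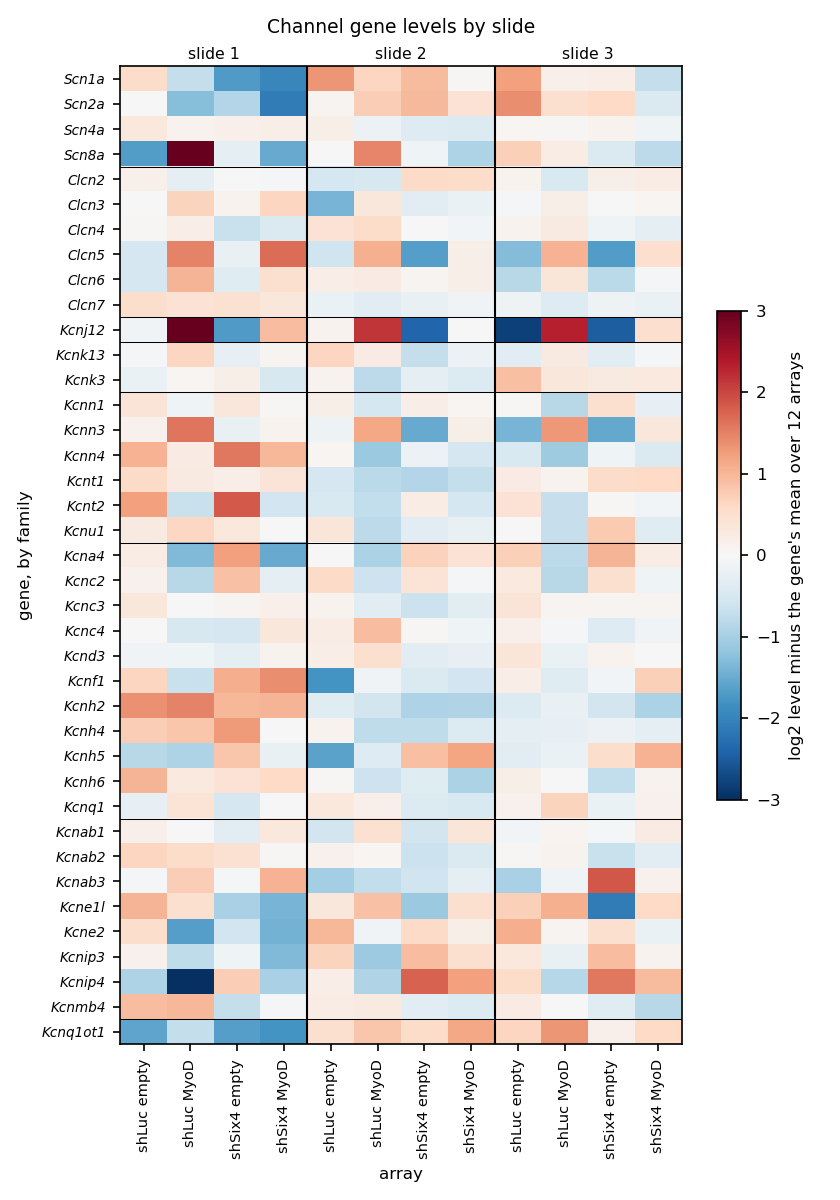
Level of 39 of the 43 kept channel genes (rows, by family) on each array (columns, the 4 groups within slides 1, 2 and 3), as log2 level minus the mean of the gene over 12 arrays, with colour clipped at -3 and 3. Kcnh2 is high on slide 1 (levels of -0.73 to -1.23 before its mean was subtracted) and low on the others, and Kcnq1ot1 the reverse. On every slide Clcn5, Kcnj12 and Kcnn3 are higher in a MyoD column than in the empty-vector column of the same line.

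Most channel genes of adult muscle were not measurable at this stage. Of 21 channels chosen for their known part in muscle or myoblasts, 9 were kept, 11 were on the array but not kept, and 1, Kcna7, had no probe named here. Those kept include Scn4a, Kcnj12, Kcnn3, Kcnn4, Clcn3 and Clcn7. Over all 59 channel genes not kept, 29 were well above background on no array, 22 on 1 to 3 arrays and 8 on 4 or more. By family, kept genes numbered 7 of 8 ClC genes, 6 of 8 calcium- and sodium-activated potassium channels, 5 of 9 sodium channel alpha subunits and 1 of 3 beta subunits, 8 of 15 potassium channel accessory genes, 2 of 9 two-pore-domain channels and 1 of 14 inward rectifiers. A gene below background on this array may still be expressed, and no fold was computed for it.

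The transporters and channels that work beside these genes were read from lists. Over all genes, 4.72% rose with MyoD in shLuc cells and 2.79% in shSix4 cells. Of 8 kept genes of the sodium-potassium pump, 4 rose with MyoD in shLuc cells and 2 in shSix4 cells, and none fell. The pump regulator Fxyd6 rose by 3.78 ± 0.39 and 2.55 ± 0.39, and the subunit Atp1b3 rose in shLuc cells by 0.84 ± 0.20. Of 15 kept calcium, HCN, leak and epithelial sodium channel genes, 3 rose in shLuc cells and 2 in shSix4 cells. These were subunits of the skeletal muscle calcium channel, Cacna1s at 4.28 ± 0.34 and 2.81 ± 0.34, Cacng1 at 8.71 ± 1.08, at least 108-fold, and 5.01 ± 1.08, and Cacnb1, which passed in shLuc cells, at 1.23 ± 0.20. Cacng1 was not well above background on any shLuc array with the empty vector, so other groups admitted it. Its test and bound in shLuc cells are thus no independent support for a rise. Whether these pump and calcium channel responses differed between the lines was tested for each gene over all 12300 and called for none.

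Of 18 kept accessory proteins of sodium and potassium channels, 2 rose in shLuc cells and 0 in shSix4 cells. Abcc9, the sulfonylurea receptor SUR2 that assembles with Kir6 channels, rose by 4.10 ± 0.56 log2 units (limma adjusted p = 0.000858), at least 7.54-fold, and Akap6 by 1.10 ± 0.23. Abcc9 was not well above background on any shLuc array with the empty vector, so other groups admitted it. Its test and bound are thus no independent support for a rise. Kcnj11, which encodes the Abcc9 partner Kir6.2, was well above background on 0 of 3 arrays in shLuc cells with the empty vector. In each other group it was so on 1 of 3 arrays. Of 11 kept cation-chloride cotransporters and kinases, 2 rose in shLuc cells, Slc12a2 by 1.04 ± 0.24 and Slc12a5 by 1.03 ± 0.19, and 0 in shSix4 cells. Of 17 kept chloride channels outside the ClC family, 2 rose in shLuc cells, Best1 by 2.88 ± 0.48 and Lrrc8d by 0.67 ± 0.16, and Best1 alone in shSix4 cells, by 2.12 ± 0.48. None of these listed genes fell in a MyoD comparison without the block, against 1.56% of all genes in shLuc and 0.106% in shSix4 cells. With the block 1 pump gene, 3 calcium and related channel genes and 1 accessory gene fell in shLuc cells. So did 2 cotransporter genes and 2 other chloride channel genes, and 15.7% of all genes fell in that fit.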

How the data were processed

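Total RNA of 12 cultures was labelled with Cy3 and hybridised to 1-colour Agilent mouse arrays, per the labels' protocols. The authors' deposited scanner files hold spot intensity, extracted with Feature Extraction 11.5.1.1 per the file headers, which give mm9 as the design's build (the submitters' processing notes name 10.5.1.1). The authors' deposited table of normalized log2 values was used as an alternative. Its columns correlated with their own arrays at r of 0.9993 to 0.9998 across probes; its centring is unknown.

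Here log2 processed intensity minus each array's 75th percentile over 43379 non-control spots was used. Spots marked as outliers were then dropped, which left 173 missing values in 156 of the genes kept (the fit uses the remaining arrays), and spots of a probe were averaged. A probe was kept if all 3 arrays of some group had it well above background, and a gene is its kept probe with the highest mean. Accessions gave 24820 of 41174 probes a symbol through RefSeq names. limma 3.58.1 in R 4.3.3 fitted the 4 groups (8 residual degrees of freedom) without a block. Adjusted p-values are Benjamini-Hochberg over all genes. Precision is limited by how few arrays there are. The script was tested on simulated data.

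The replicate number is the slide in the headers. Deviations of same-numbered arrays correlated at 0.28 to 0.82 over 18 pairs, and of others at -0.73 to 0.50 over 36, so the numbers pair the samples. Alternatives were the slide as a block, normexp (offset 50, on median signals, since the files used here lack mean signals), quantile normalization, other filters, the mean of a gene's probes, fewer groups, a trended prior, the authors' table and each array left out. A percentile over averaged probes and a fit of every probe were added after the data were seen.

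Genes past the threshold in any comparison, up to 10 by size per comparison under either fit, and 21 listed muscle channels were named; others were chosen after their values were seen. Members and lists were chosen with earlier results of these data known. Results for a few genes are not reported here.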

Additional observations from a re-analysis of the deposited data

Results flagged for a closer look

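Kcnt1, a sodium-activated potassium channel gene, changed in opposite directions in the lines on every slide. With MyoD the shLuc slides moved by -0.30, -0.31 and -0.13 log2 units, and the shSix4 slides by 0.20, 0.18 and 0.04. Its other probes, not well above background on any array, changed by -0.07 and -0.08 in shLuc cells and by -0.66 and -0.22 in shSix4 cells. All 43 kept channel genes were searched for such a pattern, and its share over all genes was not counted. Kcnt1 was kept only through the shSix4 group with MyoD. The difference of 0.39 ± 0.67 (SE) between the responses did not pass the interaction test of limma (adjusted p = 1.00, 0.840 in the blocked fit), and the gene was well above background on 1 to 3 of the 3 arrays of each group.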

How the results depend on the processing

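The count of channel genes called with MyoD in shLuc cells, 4, became 14 with the slide as a replicate block, 0 with normexp, 2 when only probes above background on all 12 arrays were kept (21 channel genes), and 1 of 9 in the authors' deposited table. It ranged from 2 to 7 over arrays left out, lowest without the shLuc MyoD array of replicate 3 and highest without the shSix4 MyoD array of replicate 1. In shSix4 cells the count of 1 became 4 with the block, 0 with normexp, 0 with the stricter filter, 2 with the mean of the kept probes and 0 in the authors' table, and ranged from 0 to 3 over arrays left out. Between the lines with MyoD the count of 0 became 3 with the block. The other counts stayed at 0. Over all genes normexp left 86 and 49 calls in the MyoD comparisons, against 772 and 356; the cause was not tested.

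Kcnc2 and Kcnj12 kept their shLuc calls in 21 of 22 alternatives each, losing them with normexp, Clcn5 in 15 of 22 and Kcnn3 in 15 of 21. Clcn5 kept its shSix4 call in 7 of 22. With normexp no call remained: in shLuc cells Kcnn3 went from 1.83 to 0.029 log2 units, Kcnj12 from 3.58 to 0.89, Clcn5 from 2.00 to 1.13 and Kcnc2 from -1.09 to -0.42, and in shSix4 cells Kcnj12 went from 2.66 to 0.084, Clcn5 from 1.97 to 1.11 and Kcnn3 from 1.30 to -0.28; the cause was not tested. Leaving out arrays turned the sign of uncalled changes: in shLuc cells Clcn7 ranged from -0.42 to 0.083, and in shSix4 cells Clcn3 from -0.0025 to 0.42, Clcn7 from -0.19 to 0.19, Kcnn4 from -0.89 to 0.18 and Scn4a from -0.24 to 0.085. The fit on only the groups compared was not run for the interaction. Genes near background, such as Kcnn3 and Scn8a, have only coarse values.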
